A study of Bombus terrestris with 8 samples.

Results

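The mir-2 K-box family and mir-71 were followed through larval growth of the buff-tailed bumblebee, Bombus terrestris. Members were taken by name from the deposited list of miRNAs: bte-mir-2-1, bte-mir-13b, bte-mir-2944 and bte-mir-11, which share the K-box seed, and bte-mir-71, which lies beside bte-mir-2-1 and bte-mir-13b in the genome. These are 5 of the 65 listed entries, and all 5 passed the filter on low counts. No other listed sequence with counts in every library carried the same seed. Small RNA had been sequenced from whole bodies of worker-destined diploid female larvae, as 4 libraries of early larvae (instars 1 and 2) and 4 libraries of late larvae (instar 4). Larvae came from 4 colonies, with no treatment named in the labels, and were pooled by colony and stage, so that a library is a pool of animals and not 1 animal. Strain and age in days were not given in the sources used here, and the sample labels do not tie a replicate number to a colony.

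MiRNAs are short RNAs that guide an Argonaute protein to messenger RNAs, mainly through the seed, bases 2 to 8 of the mature sequence. MiRNAs with the same seed can bind the same sites, so the summed amount of a seed family, here called its dose, matters as well as the amount of each member. The K-box is a short motif first described in the 3′ ends of Notch target genes of Drosophila, and the mir-2 family, which includes mir-13 and mir-11, pairs with it through its seed. In Drosophila, members of this family also restrain the pro-apoptotic genes reaper, grim and hid. In the cockroach Blattella germanica, mir-2 and mir-13 clear the transcript of Kr-h1, a juvenile hormone response gene, at metamorphosis. mir-71 has an unrelated seed, is widely found beside mir-2 in invertebrates, and is known in Caenorhabditis elegans for its part in lifespan.

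The 5 mature sequences show what the members share and where they part. They are printed 5′ to 3′ as DNA letters from the deposited table, with the seed in capitals.
bte-mir-2-1: tATCACAGccagctttgatgagcg
bte-mir-13b: tATCACAGccatttttgacgatt
bte-mir-2944: tATCACAGcagtagttacctagg
bte-mir-11: cATCACAGgcagagttctagtt
bte-mir-71: tGAAAGACatgggtagtgagatg
The 4 K-box members had the seed ATCACAG, the reverse complement of CTGTGAT, which holds the K-box letters TGTGAT. bte-mir-2-1 and bte-mir-13b shared their first 11 bases and differed by 6 edits (substitutions, insertions or deletions) over the whole mature sequence. bte-mir-2944 shared its first 9 bases with both. bte-mir-11 began with another base and shared only the seed, bases 2 to 8, with bte-mir-2-1. No other listed sequence with counts in every library was within fewer than 6 edits of a K-box member. Reads of the listed members thus differ well beyond a single mismatch. Unlisted copies are another matter. The study's gene annotation names further mir-2 and mir-13 copies in the same intron as bte-mir-2-1, which were not analysed here, and reads of near-identical copies may have been counted under the listed sequence, since the counting rules are not given, which leaves bte-mir-2-1 and bte-mir-13b uncertain to that extent.

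The hairpins from which bte-mir-2-1, bte-mir-13b and bte-mir-11 are cut are shown because the results turn on these 3, with the mature sequence in capitals.
bte-mir-2-1 hairpin: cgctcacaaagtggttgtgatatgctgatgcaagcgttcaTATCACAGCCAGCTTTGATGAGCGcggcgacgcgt
bte-mir-13b hairpin: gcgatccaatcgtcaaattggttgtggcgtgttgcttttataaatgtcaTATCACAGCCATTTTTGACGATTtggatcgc
bte-mir-11 hairpin: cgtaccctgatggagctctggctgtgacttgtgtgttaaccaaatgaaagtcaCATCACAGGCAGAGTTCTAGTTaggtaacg
All 4 K-box members lay on the 3p arm of their precursor, and bte-mir-71 on the 5p arm. On assembly Bter_1.0, bte-mir-2-1 lies on scaffold Group7.3 from 1115431 to 1115505, bte-mir-13b from 1115690 to 1115769 and bte-mir-71 from 1116956 to 1117040, all on the minus strand. The gap between the bte-mir-2-1 and bte-mir-13b precursors is 184 bases and that between bte-mir-13b and bte-mir-71 is 1186 bases. The study's annotation places this cluster in an intron of the gene for a regulatory subunit of a serine/threonine-protein phosphatase. The other K-box members are elsewhere. bte-mir-11 is on Group9.6 from 700510 to 700592 on the plus strand, with no neighbour on that strand within 10 kb among the listed hairpins searched. The search left out 2 loci that share a mature sequence and an entry with blank cells. bte-mir-2944 is on Group15.6 from 5457261 to 5457341 on the minus strand, 273 bases from bte-mir-279b, a member of another seed family.

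The early libraries held 204223 to 502540 reads on listed miRNAs and the late libraries 45649 to 257161, so late values are less precise. As a check of the whole-body label, the muscle miRNA bte-mir-1 held 34.6% to 46.8% of the listed reads, and bte-mir-124, a marker of the nervous system, was read in every library, with 1 to 35 reads. Late replicate 1 stood apart from the other late libraries. Its pairs had a chi-square per degree of freedom of 199 to 264, where the other late pairs had 57.6 to 93.1. This measure grows with depth, and late replicate 1 was the deepest late library. Among early libraries, pairs with replicate 4 had 57.1 to 134 and the others 20.4 to 43.3. Changes between stages that rest on late replicate 1 are given with and without it.

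The summed K-box dose was not shown to differ between stages, while the shares of bte-mir-2-1 and bte-mir-11 in it did not overlap between them. The early libraries, replicates 1 to 4 in turn, gave 4028, 4790, 1681 and 1423 K-box reads, and the late libraries gave 3445, 897, 379 and 149. As a percentage of listed reads this was 0.802%, 0.953%, 0.823% and 0.519% in early libraries and 1.34%, 0.633%, 0.297% and 0.326% in late libraries. Late replicate 1 thus lay above the whole early range, late replicate 2 inside it and late replicates 3 and 4 below it. After TMM normalization (CPM, which are listed reads scaled to a common library size, with edgeR's correction between libraries) the dose was 7043 ± 1144 CPM (SD, n = 4) in early and 7252 ± 5708 CPM (SD, n = 4) in late larvae.
The dose adds the reads of its members at equal weight. Members can be captured with different efficiency, so the dose and the shares are of reads and not of molecules. The means were nearly equal, but the spread was not. The dose had a coefficient of variation of 16.2% among early libraries and 78.7% among late libraries. When every seed of the list was summed and tested in 1 fit, the log2 fold change (late over early) of the K-box seed was −0.08 ± 0.38 (standard error; edgeR quasi-likelihood test, adjusted p = 0.884), in a fit where 18 of 56 seeds (32.1%) were called. Late replicate 1 carried the late mean. Without it the late dose was 4571 ± 2394 CPM (SD, n = 3), and the fit gave −0.69 ± 0.26 on the log2 scale (standard error; edgeR adjusted p = 0.0432), below the early dose. Over the 14 alternatives that keep the 4 members the adjusted p ran from 0.0432 to 0.963.

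**Figure D1:**
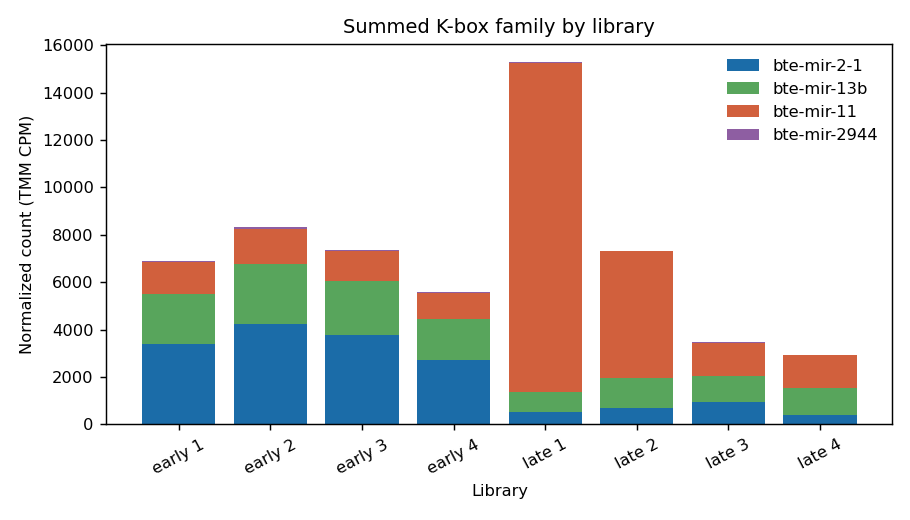
Summed K-box level in each library (bars, normalized count in TMM CPM), stacked by member. The early bars run from 5575 to 8325 CPM and are led by bte-mir-2-1, and the late bars run from 2926 to 15296 CPM and are led by bte-mir-11.

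The composition of the family was nearly fixed in early larvae. bte-mir-2-1 made up 49.2%, 50.6%, 51.2% and 48.8% of the K-box reads in early replicates 1 to 4. bte-mir-13b made up 30.5%, 30.5%, 30.8% and 30.7% in the same libraries. bte-mir-11 made up 19.5%, 17.8%, 17.2% and 19.6% there, and bte-mir-2944 between 0.833% and 1.17%. All 16 of the 95% Clopper-Pearson intervals of these early shares held the share pooled over early libraries. Such intervals cover counting error only. Over the 3 abundant members the chi-square per degree of freedom among early libraries was 1.30, close to sampling noise.

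In late larvae the order by reads turned over. bte-mir-2-1, the leading member in all 4 early libraries, had fewer reads than bte-mir-11 and bte-mir-13b in all 4 late libraries, and bte-mir-11 had the most in each. The share of bte-mir-2-1 was 3.34%, 9.25%, 27.4% and 12.8% in late replicates 1 to 4. The share of bte-mir-11 was 91.0%, 73.4%, 40.4% and 47.7% there. Counting error limits the order in some of these libraries. In late replicate 4, bte-mir-11 had 71 of the 130 reads of bte-mir-11 and bte-mir-13b together, or 54.6% (95% Clopper-Pearson interval 45.7 to 63.4), so which of them led could not be told at this depth. In late replicate 3 it had 153 of 272, or 56.2% (interval 50.1 to 62.2), just off an even split. In the same library bte-mir-13b had 119 of the 223 reads of bte-mir-13b and bte-mir-2-1, or 53.4% (interval 46.6 to 60.1), so the order of that pair could not be told there.
On average bte-mir-2-1 went from 49.9% ± 1.11 to 13.2% ± 10.3 of the K-box reads (SD, n = 4 each). bte-mir-11 went from 18.5% ± 1.22 to 63.1% ± 23.4 (SD, n = 4 each), and its late mean was 53.8% without late replicate 1. For both, the stages did not overlap. The share of bte-mir-13b was 5.57%, 17.3%, 31.4% and 39.6% in late replicates 1 to 4, on both sides of the early values. Its mean of 23.5% ± 15.1 (SD, n = 4) against 30.6% ± 0.179 (SD, n = 4) differed by less than the late spread (two-sided exact permutation test, p = 0.429, adjusted p = 0.571). Without late replicate 1 the late mean share of bte-mir-13b was 29.4%. With reads pooled over the libraries of a stage, which gives late replicate 1 the most weight, its share was 30.5% in early and 10.8% in late larvae. bte-mir-2944 held 0.116%, 0.111%, 0.792% and 0% in late libraries. The 0 of 149 reads in late replicate 4 allows a share of up to 2.01% (3 counts), so the lack of overlap for this member is not firm.
Each of the 3 members whose shares did not overlap had the smallest p that 4 against 4 libraries allow (two-sided exact permutation test, p = 0.0286). Adjusted over the 8 miRNAs of the list that share a seed with another, this became 0.0571 (exact permutation test), so 0 of the 8 (0.0%) passed 0.05 after adjustment and 4 of 8 (50.0%) did not overlap between stages. The fourth of these was bte-mir-996 of the mir-279 family, the only other seed shared by several listed sequences with counts in every library. With 4 against 4 libraries no share could pass after adjustment by itself, however far apart the stages, so the lack of a pass was largely set by the design.

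**Figure D2:**
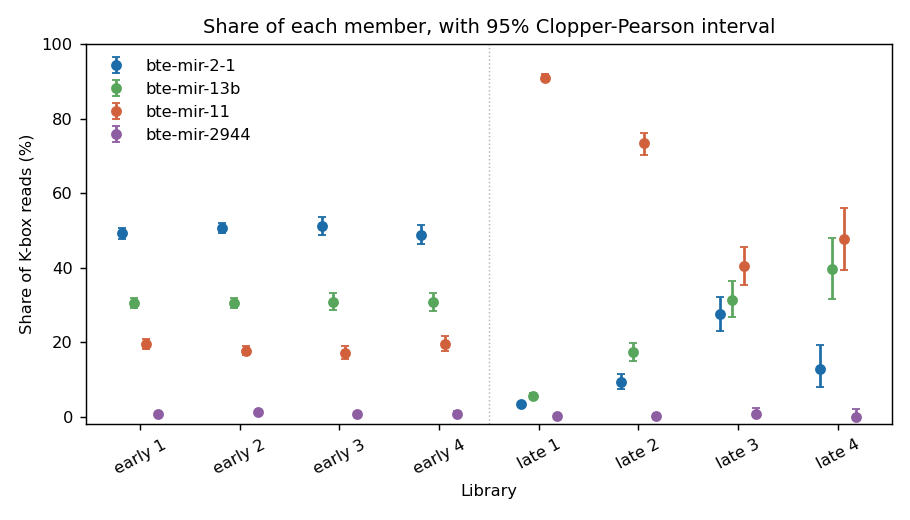
Share of each K-box member in the K-box reads of a library (points, percent) with its 95% Clopper-Pearson interval (bars), or for the 0 of bte-mir-2944 in late replicate 4 the limit of 3 counts, 2.01%. Early libraries repeat 1 pattern with bte-mir-2-1 between 48.8% and 51.2%, and in late libraries bte-mir-11 has the highest point, from 40.4% to 91.0%.

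A distance between libraries was taken as the sum of the absolute share differences divided by 2, the percentage of K-box reads that would have to change member. It was 0.366 to 2.42 percentage points between early libraries, 15.5 to 50.6 between late libraries and 21.5 to 73.8 between an early and a late library. In the mir-279 family, which also has 4 listed members, the distances were 2.83 to 12.5 between early libraries, 2.52 to 37.8 between late libraries and 2.91 to 38.7 across stages. The late K-box libraries thus differed among themselves more than any early pair, and late replicate 3 was the nearest to the early pattern. These distances share libraries and are given without a test.

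Behind the shares, 4 members were lower in late larvae and 1 was higher. In the fit across all 62 tested sequences, with stage as the only term, 20 (32.3%) had an adjusted p under 0.05, 8 (12.9%) lower and 12 (19.4%) higher in late larvae. This split was not stable. It was 14 lower and 11 higher when listed totals were used as library sizes, 13 lower and 12 higher with DESeq2, which changes the test as well, 20 lower and 9 higher without late replicate 1, and 11 lower and 5 higher without early replicate 2. All 5 members were among the 20. Their median log2 fold change was −0.99, where that of all tested sequences was 0.18. The members had been chosen with these results known, so their count is a description of the family and not a test of it. In whole-body RNA, fewer cells that express a miRNA and less of it per cell cannot be told apart.

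bte-mir-2-1 had the largest decrease of the 5. Early libraries, again replicates 1 to 4 in turn, gave 1981, 2424, 860 and 695 reads, and late libraries gave 115, 83, 104 and 19. These are normalized counts of 3393, 4213, 3771 and 2723 CPM against 511, 677, 952 and 373 CPM. The lowest early value was thus well above the highest late value. The log2 fold change was −2.48 (standard error 0.34, edgeR adjusted p = 7.3e-05), or −2.66 relative to the median of all tested sequences, and it passed 0.05 in all 13 alternative fits.
bte-mir-13b, its neighbour with the same first 11 bases, decreased less. It had 1227, 1459, 518 and 437 reads in early libraries and 192, 155, 119 and 59 reads in late libraries, which are 2102, 2536, 2272 and 1712 CPM against 853, 1264, 1089 and 1159 CPM. The stages again did not overlap. The log2 fold change was −0.99 (standard error 0.29, edgeR adjusted p = 0.0168), and the call was lost without early replicate 1 (adjusted p = 0.0589) and without early replicate 3 (adjusted p = 0.0575), in a range of 0.000268 to 0.0589 over 13 alternatives.
bte-mir-2944 was the rarest member. It had 35, 56, 14 and 12 reads in early libraries and 4, 1, 3 and 0 reads in late libraries. The log2 fold change was −2.10 (standard error 0.64, edgeR adjusted p = 0.0181), and the call was lost in 2 of 13 alternatives (adjusted p from 0.00292 to 0.0643 over all 13), one of them being without late replicate 2 (adjusted p = 0.0620). The 0 reads of late replicate 4 allow up to 58.9 CPM (3 counts), above the lowest early value of 47.0 CPM, so its separation between stages rests on few reads.

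bte-mir-11 was the only member that was higher in late larvae. It had 785, 851, 289 and 279 reads in early libraries and 3134, 658, 153 and 71 reads in late libraries, which are 1345, 1479, 1267 and 1093 CPM against 13916, 5367, 1400 and 1394 CPM. Late replicates 1 and 2 were far above every early library, and late replicates 3 and 4 lay inside the early range. The log2 fold change was 2.10 (standard error 0.58, edgeR adjusted p = 0.0129). It dropped to 0.45 without late replicate 1 (adjusted p = 0.350), and relative to the median of all tested sequences in each fit it went from 1.91 to 0.96. The call was also lost without early replicate 2 (adjusted p = 0.0745, log2 fold change 1.81). Across all its alternative fits the adjusted p ran from 0.000616 to 0.350. bte-mir-1 took 46.8% of the listed reads in late replicate 1 and 34.6% to 35.3% in the other late libraries. With bte-mir-1 left out of the table before normalization the log2 fold change of bte-mir-11 was 1.96 (edgeR adjusted p = 0.0242).

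bte-mir-71 decreased with its neighbours. It had 4046, 4130, 1522 and 1307 reads in early libraries and 842, 610, 387 and 153 reads in late libraries. In normalized counts these are 6930, 7178, 6675 and 5121 CPM against 3739, 4976, 3542 and 3005 CPM. The stages did not overlap, although late replicate 2 came close to early replicate 4. The log2 fold change was −0.76 (standard error 0.25, edgeR adjusted p = 0.0271), or −0.95 relative to the median of all tested sequences. The call was lost without early replicate 1 (adjusted p = 0.0908), early replicate 3 (adjusted p = 0.0783) or late replicate 3 (adjusted p = 0.0597), in a range of 0.000408 to 0.0908 over 13 alternatives. Of the 62 sequences, 20 (32.3%) did not overlap between stages, 12 of them (19.4%) lower in late larvae, and 4 of the 5 members were among these 12.

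**Figure D3:**
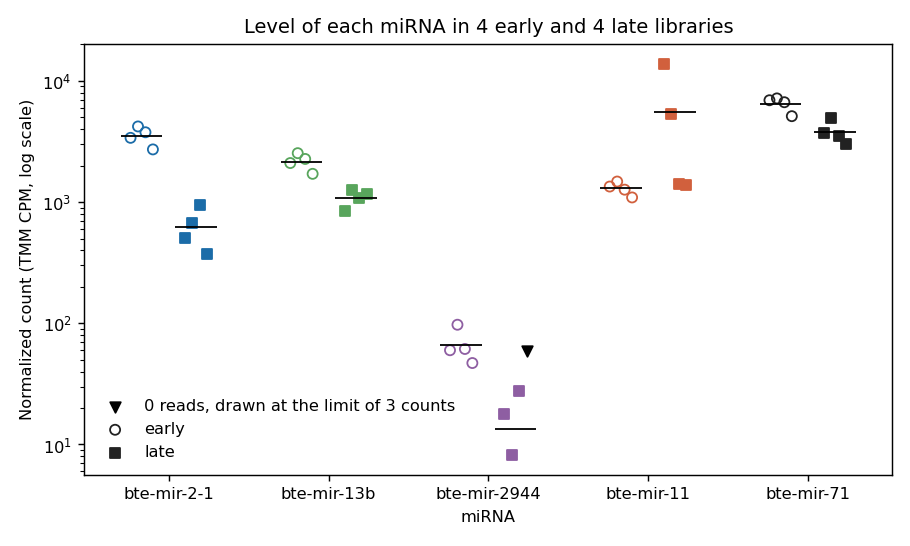
Normalized count (TMM CPM, log scale) of the 5 miRNAs in early (open circles) and late (filled squares) libraries, with the stage mean as a line. Late points lie below early points for bte-mir-2-1, bte-mir-13b and bte-mir-71, the 0 of bte-mir-2944 is drawn at its limit of 58.9 CPM, and for bte-mir-11 the late points run from 1394 to 13916 CPM.

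The order of the members by level changed accordingly. Reads of different miRNAs can be captured with different efficiency, which limits comparison of levels between them, although all 5 are 22 to 24 bases long. In early larvae the order was bte-mir-71, bte-mir-2-1, bte-mir-13b, bte-mir-11 and bte-mir-2944, and no neighbours in this order overlapped in normalized counts. In late larvae bte-mir-11 (1394 to 13916 CPM) overlapped with bte-mir-71 (3005 to 4976 CPM), and bte-mir-13b (853 to 1264 CPM) overlapped with bte-mir-2-1 (373 to 952 CPM), while bte-mir-2944 stayed below all of them. By reads, bte-mir-2-1 went from rank 14 to 18 among 63 sequences in early libraries to rank 27 to 32 in late libraries. bte-mir-11 was at rank 26 in all 4 early libraries and at ranks 11, 14, 23 and 24 in late replicates 1 to 4.

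Split by locus, the dose without bte-mir-11 was lower in every late library. That of bte-mir-11 was above its early range only in late replicates 1 and 2. The 3 members other than bte-mir-11 summed to 5747 ± 995 CPM in early and 1733 ± 329 CPM in late larvae (SD, n = 4 each), with no overlap and with a similar relative spread (17.3% and 19.0%). With bte-mir-11 kept as a feature of its own in the fit of seeds, a setting chosen after seeing the data, the rest of the K-box seed came to −1.72 ± 0.25 on the log2 scale (late over early, standard error; edgeR adjusted p = 0.000415), and −1.58 without late replicate 1. In mean normalized counts bte-mir-2-1 dropped by 2897 CPM and bte-mir-13b dropped by 1064 CPM, and bte-mir-11 gained 4223 CPM, or 1425 CPM without late replicate 1. In late replicates 3 and 4 bte-mir-11 lay inside its early range, at 1400 and 1394 CPM. The cluster on Group7.3, with bte-mir-71 included, summed to 12156 ± 1851 CPM in early and 5535 ± 1016 CPM in late larvae (SD, n = 4 each).

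Whether neighbours from 1 intron kept the same proportions was read from ratios within a library, which do not depend on normalization. The ratio of bte-mir-2-1 to bte-mir-13b reads was 1.61, 1.66, 1.66 and 1.59 in the early libraries, replicates 1 to 4 in turn, and 0.599, 0.535, 0.874 and 0.322 in the late ones. bte-mir-2-1 had more reads than bte-mir-13b in every early library and fewer in every late library, although in late replicate 3, with 104 against 119 reads, the difference was within counting error. The mean log2 ratio, with 0.5 added to each count, went from 0.71 ± 0.03 to −0.86 ± 0.58 (SD, n = 4 each), a change of −1.56 (two-sided exact permutation test, p = 0.0286, adjusted p = 0.0952).
The ratio of bte-mir-2-1 to bte-mir-71 went the same way, from between 0.490 and 0.587 in early libraries to 0.137, 0.136, 0.269 and 0.124 in late replicates 1 to 4. The mean log2 ratio changed by −1.77 (two-sided exact permutation test, p = 0.0286, adjusted p = 0.0952). The ratio of bte-mir-13b to bte-mir-71 lay between 0.303 and 0.353 in early libraries, inside the late range of 0.228 to 0.386. Its mean log2 ratio was −1.59 ± 0.09 in early and −1.79 ± 0.33 in late larvae (SD, n = 4 each), a change of −0.20 that was within the late spread (two-sided exact permutation test, p = 0.314, adjusted p = 0.392). Thus the stages did not overlap in either ratio with bte-mir-2-1 and overlapped in the third. None of the 3 changes passed 0.05 after adjustment, which with 4 against 4 libraries no ratio could do by itself, however far apart the stages.
These p-values were adjusted over the 10 pairs of listed hairpins within 10 kb on 1 strand. The 2 loci that share a mature sequence and the entry with blank cells were not in this search. Of the 10, 3 (30.0%) did not overlap between stages, and 0 (0.0%) passed 0.05 after adjustment although 3 had the smallest possible p of 0.0286 (exact permutation test). The third was bte-mir-996 over bte-mir-279a. Among the 7 other pairs the absolute change in mean log2 ratio ran from 0.09 to 2.14 with a median of 1.29. The largest of these rest on few reads of 1 miRNA and overlapped between stages, namely MC1211 over bte-let-7 (3 to 8 early reads of MC1211), bte-mir-277 over bte-mir-3730 (0 to 11 late reads of bte-mir-3730) and bte-mir-2788 over bte-mir-193 (0 to 2 reads of bte-mir-2788). For bte-mir-2944 over its neighbour bte-mir-279b the change was −0.87 (two-sided exact permutation test, p = 0.0857, adjusted p = 0.171), from counts of 0 to 56.

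**Figure D4:**
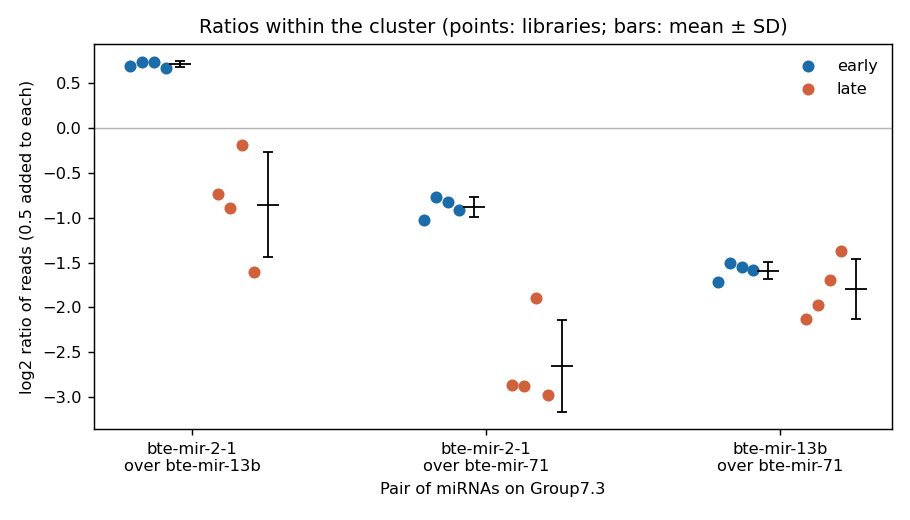
Log2 ratio of reads between the 3 miRNAs on Group7.3 (points: libraries, bars: mean and SD, n = 4 per stage). Both ratios with bte-mir-2-1 on top lie lower in late libraries without overlap, with changes of −1.56 and −1.77, and the ratio of bte-mir-13b to bte-mir-71 overlaps.

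The miRNAs whose profile over the 8 libraries was most like that of bte-mir-71, by Pearson's r of log2 normalized counts among 49 other sequences with at least 100 reads, were bte-mir-2-1 (r = 0.91), bte-mir-13b (r = 0.90) and bte-mir-306 (r = 0.90). For the summed K-box dose, among 46 sequences outside the family, they were bte-mir-7 (r = 0.73), bte-mir-12 (r = 0.73) and bte-mir-3718a (r = 0.72). Like the dose, these were above their late means in late replicate 1, at 857 CPM (late mean 644), 17978 CPM (9271) and 972 CPM (390) in turn. The correlations were not run without that library. These values are descriptions over 8 libraries that fall into stages, and the profiles share the libraries and their normalization.

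**Figure D5:**
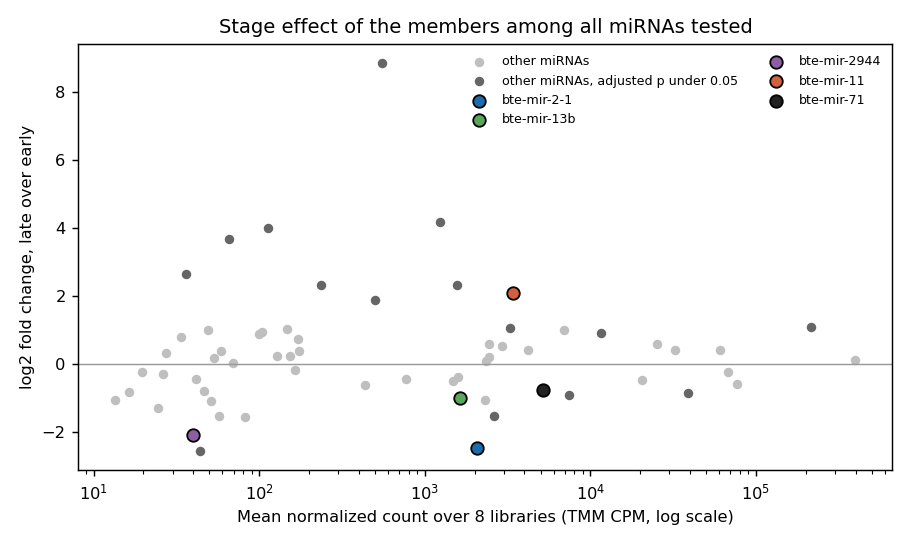
Log2 fold change between late and early larvae against mean normalized count (TMM CPM, log scale) for the 62 tested miRNAs, with those past an adjusted p of 0.05 in dark grey and the 5 members as large outlined points. bte-mir-2-1 (−2.48), bte-mir-2944 (−2.10), bte-mir-13b (−0.99) and bte-mir-71 (−0.76) lie below 0 and bte-mir-11 (2.10) lies above it.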

How the data were processed

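Small RNA libraries were made with a 3′ adaptor carrying 4 degenerate bases. All 8 libraries were mapped together to Bter_1.0 by the authors, who predicted precursors with miRCat or kept them by conservation and deposited raw counts per listed mature sequence and library. The aligner, mismatches allowed, end variants and removal of duplicate reads are not given in the sources used here. Columns were matched to libraries by stage initials and replicate number.

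An entry with blank cells was left out, and 1 mature sequence listed at 2 loci entered a single time, leaving 63 sequences. Sequences with at least 10 counts (62) were normalized by TMM and tested with edgeR 4.0.16 (R 4.3.3, quasi-likelihood, stage as the only term, Benjamini-Hochberg adjustment). Counts summed by seed (56 seeds) were tested likewise. Standard errors were approximated from the log2 fold change and the F statistic. On simulated data with 15 sequences changed by 2 on the log2 scale, the fit of 62 sequences recovered 89.7% of the changes, and 7.56% of its calls were false. The fit of 56 seeds, with 15 changed, recovered 91.7%, and 5.17% of its calls were false. Both shares of false calls were above the threshold of 0.05. Smaller changes were not simulated, nor was a larger spread among late than early libraries, as the K-box sum and bte-mir-11 had here. Shares and ratios were compared by exact permutation over libraries (SciPy 1.17.1). The p-values set the difference between stages against the spread between these pools. The main fit and the permutation tests treat the pools as independent, although early and late pools came from the same colonies.

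Members and lists were chosen with earlier results of these data known. Named were the 5 members, other sequences with the seed, miRNAs of other shared seeds or of pairs within 10 kb, the 3 profiles most like bte-mir-71 and the K-box sum, bte-mir-1, and bte-mir-124 as a marker. Alternatives were DESeq2 1.42.0, no filter, the replicate block, listed totals as library sizes, each library or bte-mir-1 left out, a seed of bases 2 to 7, pooled reads and another pseudocount. Keeping bte-mir-11 apart was added after seeing the data.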

Additional observations from a re-analysis of the deposited data

Results flagged for a closer look

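Within each stage, 26 groups of 4 values were searched for a library far from the other 3 (by the gap to the nearest, as a part of the range), and 3 values stood out, where chance gives about 1 group in 20. The share of bte-mir-2944 in the K-box reads was 1.17% in early replicate 2, from 56 reads, where the other early libraries lay between 0.833% and 0.869%. In late replicate 3 its share was 0.792%, from 3 reads, against at most 0.116% in the other late libraries. The log2 ratio of bte-mir-2-1 over bte-mir-71 was −1.89 in late replicate 3, where the other late libraries lay between −2.98 and −2.87. Late replicate 3 was also the late library with the highest share of bte-mir-2-1 (27.4%).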

How the results depend on the processing

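Relative to the median of all tested sequences, each of the 5 members kept its direction in all 13 alternative fits. The dose of the K-box seed passed 0.05 without late replicate 1 and with bte-mir-11 kept apart (log2 fold change −1.72, and −1.58 without late replicate 1 as well), and its sign turned to 0.14 without late replicate 3 and 0.13 without late replicate 4. With single libraries left out, the log2 fold change ran from −0.69 to 0.14 for the K-box seed, −2.86 to −2.31 for bte-mir-2-1, −1.31 to −0.96 for bte-mir-13b, −2.79 to −1.92 for bte-mir-2944, 0.45 to 2.42 for bte-mir-11 and −1.24 to −0.66 for bte-mir-71. The cause was not tested. The number of called sequences was 15 to 29 with libraries left out and 18 to 25 otherwise. Over all tested sequences the median log2 fold change was 0.18 with TMM, −0.09 with scaling by the listed total and −0.51 without late replicate 1. Whether replicate numbers pair the libraries by colony could not be told. The correlation of deviations was −0.06, 0.05, 0.01 and −0.10 for numbers 1 to 4, and −0.12 to 0.12 between unlike numbers. With the replicate block the log2 fold change of bte-mir-2944 was −2.16 (edgeR adjusted p = 0.0643), so that its call was lost, that of bte-mir-11 was 1.42 (adjusted p = 0.0383), that of the K-box seed was −0.33 (adjusted p = 0.458), and 18 sequences were called. With libraries left out, the change in share ran from −41.5 to −33.5 percentage points for bte-mir-2-1, 35.3 to 52.1 for bte-mir-11, −12.5 to −1.19 for bte-mir-13b and −0.853 to −0.589 for bte-mir-2944, and that in log2 ratio from −1.79 to −1.31 for bte-mir-2-1 over bte-mir-13b, −2.02 to −1.66 over bte-mir-71, and −0.34 to −0.09 for bte-mir-13b over bte-mir-71. With reads pooled by stage the change in share was −43.4 points for bte-mir-2-1, 64.0 for bte-mir-11 and −19.8 for bte-mir-13b. With 3 against 4 libraries the two-sided exact permutation test used here cannot pass 0.05, so these are values without a test. Late replicate 4, with 149 K-box reads, limits every late share. Restricting the seed to its named members was not run, because no other listed sequence with counts in every library carries it.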

Other observations

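The K-box letters TGTGAT, searched on the listed strand, occurred in 5 of the 65 listed precursors (7.69%). Before the mature sequence they were present in the bte-mir-2-1 and bte-mir-2944 hairpins and not in those of bte-mir-13b and bte-mir-11. In the predicted folds the seed of each K-box member pairs with that side of its own hairpin, apart from the first seed base of bte-mir-13b. The letters of that side are thus partly fixed by the fold.

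bte-mir-71 had about as many reads as the whole K-box family in most libraries. Its reads were 1.00, 0.862, 0.905 and 0.918 times those of the family in early replicates 1 to 4, and 1.02 and 1.03 times in late replicates 3 and 4. In late replicates 1 and 2, the libraries with the highest bte-mir-11 shares, the values were 0.244 and 0.680.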
